A study of Homo sapiens with 6 samples.

Results

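The genes described here govern how much glucose a cell takes up and whether the pyruvate made from it is turned into lactate or burned in mitochondria. They are the glucose transporter genes SLC2A1 and SLC2A3, the hexokinase genes HK1 and HK2, the PFKFB genes PFKFB2, PFKFB3 and PFKFB4, the lactate dehydrogenase gene LDHA and the pyruvate dehydrogenase kinase genes PDK1 and PDK4. They were chosen by symbol, with earlier results of these data known. Of the 10 genes 9 had a probe set among the 17687 named genes of the array, and PFKFB4 was not analysed here.

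Glucose enters cells down its gradient through GLUT proteins and is held there once a hexokinase phosphorylates it. The PFKFB enzymes make and break fructose 2,6-bisphosphate, the strongest allosteric activator of phosphofructokinase, and so set the pace of the middle of glycolysis. At the end of the pathway lactate dehydrogenase A turns pyruvate into lactate, while PDK enzymes phosphorylate and switch off the pyruvate dehydrogenase complex, which would feed pyruvate to the mitochondria. Growth factor receptors, MYC and the hypoxia-inducible factor HIF are known activators of many of these genes, and FOXO factors are known activators of PDK4.

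RNA of 3 lung cancer cell lines was hybridised to 6 Clarion S arrays, 1 for each line in each of 2 conditions. PC-9 and HCC827 are established non-small cell lung cancer lines whose receptor for epidermal growth factor (EGFR) is mutated, and for each the control stands beside cells exposed for 6 hours to 0.01 µM of the EGFR kinase inhibitor erlotinib. For H322, a line labelled wild-type for EGFR, the control stands beside cells exposed for 6 hours to EGF, the ligand of the receptor, at a dose that the labels write as 100 µg/ml. Per the labels the medium contained tumour necrosis factor alpha (TNF alpha). They do not say whether this holds for the controls, and if it does not, TNF alpha and the treatments cannot be told apart. Signals are given as log2(intensity + 1), and a signal counts as above background when it exceeds that of 95% of the array's 612 negative control probe sets, a level that lay between 6.92 and 7.47. Where 1 signal of a pair fell short of that level, the level took its place and the fold reads "at least"; a pair with both signals below it has no fold. Probe sets differ in brightness, so levels are compared between arrays and never between genes.

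All 6 epithelial markers fixed for the lines (EPCAM, CDH1, KRT7, KRT8, KRT18 and KRT19) lay above background on all 6 arrays. NKX2-1 and NAPSA, of the lung lineage, did so on both HCC827 arrays alone, and SFTPB on none. Of the markers of other cells, 3 of 4 leukocyte genes, 3 of 4 fibroblast genes and 1 of 3 endothelial genes lay above background on none. The leukocyte gene CD68 and the fibroblast gene COL1A2 did so on 5 arrays each, and CD68 reached 13.66 in HCC827 with erlotinib. The endothelial genes CDH5 and VWF did so on 2 arrays and 1 array. Of 15 known output genes of ERK signalling, 8 passed the test below with erlotinib, all of them lower (0.916% of all genes). With EGF 14 of the 15 had a higher signal (51.1% of all genes). This list was chosen with earlier results of these data known, so it is no independent check on the treatments. Of the 9 measured genes 5 lay above background on all 6 arrays (SLC2A1, HK1, PFKFB2, LDHA and PDK1). HK2 did so on 5, SLC2A3 and PFKFB3 on 3, and PDK4 on 1.

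The effect of erlotinib was tested with limma over the 4 EGFR-mutant arrays, with the line as a block and Benjamini-Hochberg adjustment over all 17687 genes. The 2 lines served as replicates. With 1 residual degree of freedom of its own and 6.58 borrowed by limma, each p draws its spread mostly from other genes. With the line as a block, a gene's own residual is how far its change with erlotinib differs between the 2 lines. Nothing in the labels shows repeat cultures within a line, so p-values do not measure the spread between such cultures. Of the 9 genes 4 fell (SLC2A1, SLC2A3, HK2 and PDK1), 1 rose (PDK4) and 4 did not pass (HK1, PFKFB2, PFKFB3 and LDHA). Over all genes 0.916% fell and 0.565% rose. The median change of the 9 was -0.88 on the log2 scale, against 0.00 over all genes. Since the 9 genes were chosen with earlier results of these data known, these contrasts with all genes are descriptive only.

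The windows before the start sites of HK2, PDK1 and LDHA are shown because these genes differ in response while all of them hold the letters ACGTG, the core of the sites to which HIF binds. HK2 had the largest mean decrease of the 9, though its PC-9 part rests on a treated signal below background. With dim signals set to background SLC2A1 had a larger decrease, -1.78 against -1.49 for HK2. PDK1 changed by nearly the same amount in both lines, and LDHA moved least of the 7 genes that were lower in both lines. The sequences are from RefSeq (GRCh38.p14) and give the 250 bases before a start site, 5′ to 3′ on the strand of the gene, with each match to a searched motif on either strand in capitals. They lie at chr2:74833877-74834126 on the plus strand for HK2, at chr2:172555840-172556089 on the plus strand for PDK1 and at chr11:18394313-18394562 on the plus strand for LDHA.
HK2: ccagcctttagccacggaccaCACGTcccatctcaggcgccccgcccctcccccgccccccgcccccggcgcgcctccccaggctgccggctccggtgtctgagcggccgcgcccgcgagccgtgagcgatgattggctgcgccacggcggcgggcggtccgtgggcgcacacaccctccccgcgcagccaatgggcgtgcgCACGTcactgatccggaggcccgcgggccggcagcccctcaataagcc
PDK1: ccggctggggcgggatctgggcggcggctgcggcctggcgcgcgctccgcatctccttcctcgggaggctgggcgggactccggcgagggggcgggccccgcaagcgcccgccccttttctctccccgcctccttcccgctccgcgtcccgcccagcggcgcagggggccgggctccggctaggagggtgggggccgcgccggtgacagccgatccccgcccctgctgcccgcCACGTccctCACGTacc
LDHA: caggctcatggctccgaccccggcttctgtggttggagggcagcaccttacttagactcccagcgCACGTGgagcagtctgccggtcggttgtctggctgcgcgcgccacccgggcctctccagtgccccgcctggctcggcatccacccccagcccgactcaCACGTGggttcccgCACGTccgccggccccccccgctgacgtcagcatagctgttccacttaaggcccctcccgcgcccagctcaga

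In the HK2 window shown ACGTG matched at places beginning 229 and 48 bases before the start, and in the PDK1 window at 17 and 8 bases. The LDHA window held the palindrome CACGTG, the E-box to which MYC and MAX bind, beginning 185 and 87 bases before the start, and a further ACGTG at 73 bases. Before a second start site of HK2, whose window is not shown, CACGTG matched at 194 and 149 bases. CACGTG contains ACGTG on both strands, so each E-box also counts as a match to the shorter motif. A table of start sites gave 18 such windows for 8 of the 10 genes, SLC2A3 and PFKFB2 being the others. At least 1 window held ACGTG for 4 genes (HK2, PFKFB3, LDHA and PDK1) and CACGTG for 3 (HK2, PFKFB3 and LDHA). The other PDK1 window, the other LDHA window and the SLC2A1 window matched none of the searched motifs. Counted by window, 5 of the 18 held ACGTG and 3 held CACGTG, where 18.5% and 6.34% of all 35116 windows of this length did. The AP-1 motif TGANTCA was found for HK1 in 2 windows (6.57% of all windows). Neither the FOXO motif GTAAACA (2.98%) nor the ETS motif CCGGAAGT (3.42%) matched in any of the 18, which says only that these letters are not in these windows.

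**Figure D1:**
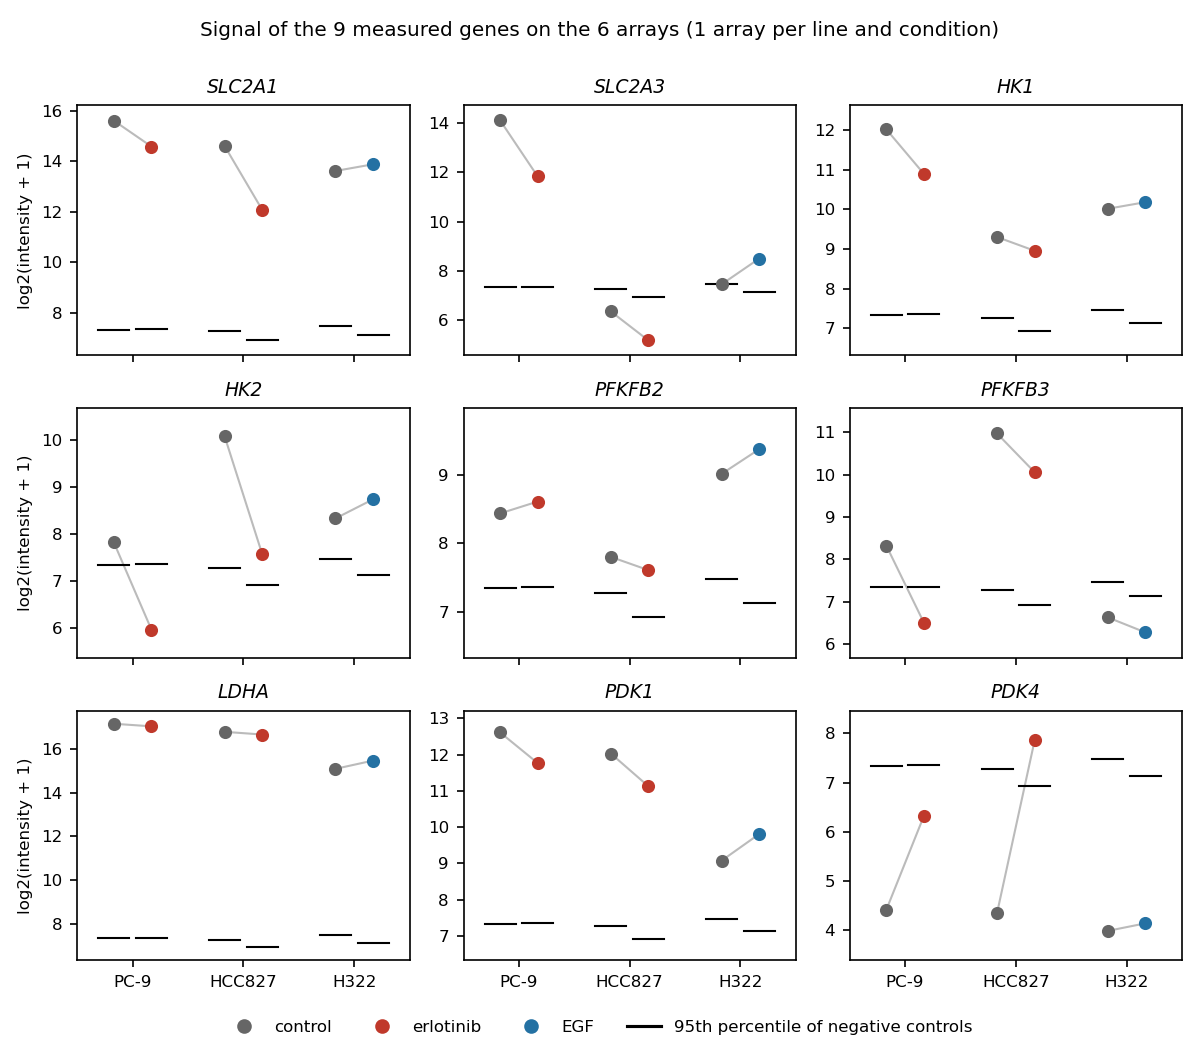
Signal of each measured gene, as log2(intensity + 1), on the control array (grey) and the treated array (red, erlotinib; blue, EGF) of each cell line; every point is 1 array, and black bars mark the 95th percentile of the negative controls on that array. SLC2A1, HK1, LDHA and PDK1 stand clear of the bars on all 6 arrays, and SLC2A3 does so clearly in PC-9. PDK4 passes its bar on the erlotinib array of HCC827 alone.

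SLC2A1 encodes GLUT1, the transporter that supplies basal glucose uptake in most proliferating cells. Its signal was 15.61 in PC-9 control cells and 14.58 with erlotinib, and 14.61 in HCC827 control cells and 12.08 with erlotinib. Both treated arrays were below both control arrays, with PC-9 with erlotinib just under HCC827 control. The mean log2 signal of SLC2A1 fell by 1.78 ± 0.30 (moderated SE from limma, n = 2 lines), or 3.43-fold (limma adjusted p = 0.0404). The lines stood apart in size, with a 2.04-fold decrease in PC-9 and a 5.78-fold one in HCC827, and that difference has no test with 1 array per line and condition. Among genes above background on both arrays of a line, 12 had a lower value than SLC2A1 in HCC827 and 214 in PC-9. In H322 the signal was 13.62 in control cells and 13.88 with EGF, a difference of 0.27. On the erlotinib array of HCC827 the level was below both H322 arrays.

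SLC2A3 encodes GLUT3, a transporter of high glucose affinity best known from neurons. Its signal in PC-9 was 14.11 in control cells and 11.83 with erlotinib, 4.86-fold lower. In HCC827 both signals, 6.36 and 5.18, lay below background, so no fold is given there. In H322 it was 7.46 in control cells, at the edge of background, and 8.50 with EGF. That made it at least 2.05-fold higher with EGF, the one gene of the 9 past 2-fold in that line, where 0.0622% of all genes were 2-fold higher by the same rule and 0.0509% 2-fold lower. With an offset of 16 the SLC2A3 difference was 0.99, short of 2-fold, and the differences of the negative controls between the H322 arrays had an SD of 1.18. The mean with erlotinib fell by 1.73 ± 0.29 (limma adjusted p = 0.0406), and its HCC827 part rests on signals below background.

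The probe set of SLC2A14, a near-identical neighbour of SLC2A3, gave, control first, 14.27 and 12.10 in PC-9, 9.50 and 7.22 in HCC827, and 9.20 and 9.38 in H322. The probe sets of these paralogs can share transcripts, so the share of either gene in these signals is uncertain. In HCC827 they differed in whether a signal was seen at all, since SLC2A14 lay above background on both arrays and SLC2A3 on neither. SLC2A14 fell by 2.23 ± 0.18 (limma adjusted p = 0.00734), and its changes in PC-9 (-2.17) and HCC827 (-2.28) were close.

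HK2 encodes the hexokinase that is induced in many tumours and can bind the outer mitochondrial membrane. Its signal was 10.09 in HCC827 control cells and 7.57 with erlotinib, 5.73-fold lower, and 14 of the genes above background on both HCC827 arrays had a lower value. In PC-9 it was 7.82 in control cells, little above background, and 5.96 with erlotinib, below it, so that it was at least 1.38-fold lower. HK2 fell by 2.19 ± 0.28 (limma adjusted p = 0.0184), the 22nd lowest mean change of the 17687 genes. The PC-9 part of this mean rests on a signal below background. With each dim signal set to its array's background level, the mean change of HK2 was -1.49. In H322 it was 8.33 in control cells and 8.74 with EGF, a difference of 0.41.

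HK1 encodes the hexokinase found in most tissues. In PC-9 its signal was 12.02 in control cells and 10.89 with erlotinib, 2.18-fold lower, and in HCC827 it was 9.30 and 8.96, 1.27-fold lower. The mean change of -0.74 ± 0.23 did not pass (limma adjusted p = 0.202). In H322 it was 10.01 and 10.18. The 2 hexokinase genes had opposite orders in the control cells of the EGFR-mutant lines: HK1 was 6.56-fold higher in PC-9 than in HCC827, and HK2 was 4.81-fold lower. With erlotinib HK1 was past 2-fold lower in PC-9, and HK2 in HCC827. In PC-9 the HK2 control lay only 0.48 above background, so a 2-fold decrease could not be seen there. With dim signals left as they were, the HK2 difference in PC-9 was -1.86.

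PFKFB3 encodes the isoenzyme with the highest ratio of kinase to phosphatase activity in its family and so favours glycolysis. Its signal was 10.97 in HCC827 control cells and 10.06 with erlotinib, 1.89-fold lower. In PC-9 it was 8.33 in control cells and 6.50 with erlotinib, the latter below background, so that it was at least 1.96-fold lower. The 2 lines agreed in direction, but the mean of -1.37 ± 0.27 did not pass (limma adjusted p = 0.0617). Both H322 signals, 6.63 and 6.28, lay below background.

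PFKFB2, the isoenzyme known from heart, which AKT can activate by phosphorylation, was above background on all 6 arrays. Its signals, control first, were 8.43 and 8.61 in PC-9, 7.80 and 7.60 in HCC827, and 9.01 and 9.37 in H322. The mean change with erlotinib was -0.01 ± 0.25 (limma adjusted p = 0.992), with opposite signs in the lines. The H322 arrays were the highest of the 6 for this gene, and the HCC827 arrays the lowest.

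LDHA encodes the lactate dehydrogenase subunit that favours lactate production. Its signals, control first, were 17.16 and 17.04 in PC-9, 16.79 and 16.66 in HCC827, and 15.09 and 15.47 in H322. The erlotinib arrays were lower by nearly the same amount in both lines, 0.12 on the log2 scale. This mean of -0.12 ± 0.08 did not pass (limma adjusted p = 0.591). All 4 arrays of the EGFR-mutant lines were above both H322 arrays. With EGF it was 1.30-fold higher, and 516 of the 8583 genes above background on both H322 arrays had a larger increase.

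PDK1 encodes a kinase that shuts pyruvate dehydrogenase and is a known target of HIF. Its signal was 12.61 in PC-9 control cells and 11.77 with erlotinib, and 12.03 in HCC827 control cells and 11.12 with erlotinib. Both treated arrays were below both controls, and the changes of the lines, -0.85 and -0.91, lay 0.06 apart, the second smallest gap of the 9 after LDHA. PDK1 fell by 0.88 ± 0.15, or 1.84-fold (limma adjusted p = 0.0452). In H322 the signal was 9.07 in control cells and 9.81 with EGF, 1.67-fold higher. Of the 8583 genes above background on both H322 arrays, 59 had a larger increase. The lowest EGFR-mutant array, HCC827 with erlotinib, still had a higher PDK1 signal than either H322 array.

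PDK4 encodes a kinase of the same family that is known to be induced on starvation. Its signal was 4.41 in PC-9 control cells and 6.32 with erlotinib, both below background. In HCC827 it was 4.35 in control cells, below background, and 7.86 with erlotinib, above it, so that it was at least 1.50-fold higher. Both treated arrays were above both controls, and the mean log2 signal of PDK4 rose by 2.71 ± 0.39 (limma adjusted p = 0.0269), a value that rests on 3 signals below background. With each dim signal set to its array's background level, the mean change was 0.30. Both H322 signals, 3.99 and 4.14, lay below background.

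**Figure D2:**
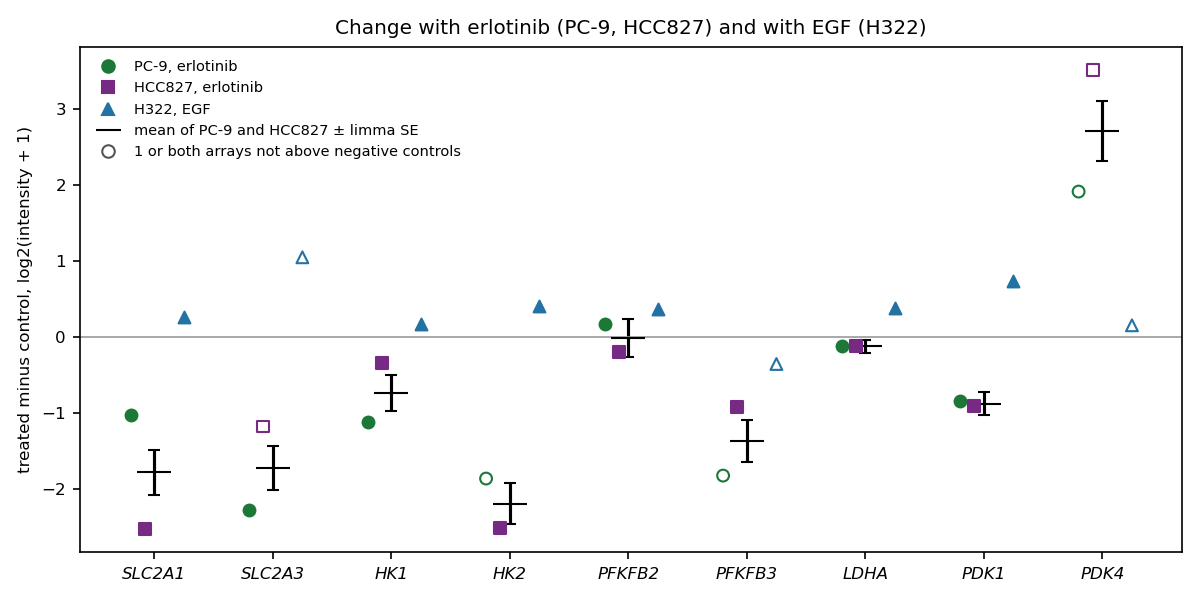
Treated minus control on the log2(intensity + 1) scale for each gene in PC-9 (circles) and HCC827 (squares) with erlotinib and in H322 (triangles) with EGF; black bars are the mean of PC-9 and HCC827 with limma's moderated SE, and open symbols mark pairs in which 1 or both arrays were not above background. SLC2A1, SLC2A3, HK1, HK2, LDHA and PDK1 lie below 0 in both erlotinib lines and above 0 with EGF. LDHA lies close to 0 with erlotinib. Symbols are open for HK2 in PC-9, PFKFB3 in PC-9 and H322, SLC2A3 in HCC827 and H322, and PDK4 in all lines.

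Read line by line, 3 of the 9 genes were at least 2-fold lower with erlotinib in PC-9 (SLC2A1, SLC2A3 and HK1), where 1.5% of all genes were. In HCC827 there were 2 (SLC2A1 and HK2), where 1.72% of all genes were. SLC2A1 was the 1 gene of the 9 at least 2-fold lower in both lines, as were 0.577% of all genes. None of the 9 was at least 2-fold higher in either line, where 0.741% of all genes were in PC-9 and 2.17% in HCC827, since PDK4 came too little above background for such a fold. By sign alone 7 of the 9 were lower in both lines, against 29.6% of all genes.

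With EGF 8 of the 9 genes had a higher signal in H322, PFKFB3 being the exception, where 51.1% of all genes had, though both H322 signals of PFKFB3 and PDK4 lay below background. Lower in both erlotinib lines and higher with EGF were 6 of the 9 genes, a pattern that 18.3% of all genes had. These increases were small: among genes above background on both H322 arrays the central 90% of differences ran from -0.40 to 0.41, and of the 6 genes measured on both arrays PDK1 alone lay beyond it, with HK2 at its edge. There is no replicate check for EGF, and the agent and the cell line cannot be told apart when these changes are set beside those with erlotinib.

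The control levels of these genes also differed between the lines. SLC2A3 stood highest in PC-9, at least 114-fold above HCC827 and at least 99.9-fold above H322. PDK1 in PC-9 exceeded its H322 level 11.6-fold, and PDK1 in HCC827 exceeded it 7.76-fold. LDHA was 4.19-fold and 3.24-fold higher, and SLC2A1 3.98-fold and 1.99-fold higher, in the same order. PFKFB3 was highest in HCC827, 6.26-fold above PC-9 and at least 11.3-fold above H322. Between any 2 of the lines 5 of the 9 genes were at least 2-fold apart, where 19.7% of all genes were between PC-9 and HCC827, 20.7% between PC-9 and H322 and 19.7% between HCC827 and H322. These differences are of 1 array against 1 array and have no test.

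The calls of the genes that moved depended on how the spread was modelled and on how dim genes were handled. HK2 was called in 6 of 8 alternative fits, and lost the call where one spread was assumed at all signal levels (limma adjusted p = 0.117) and where the line was no block. In those 2 fits none of the 9 genes was called. SLC2A1, SLC2A3, PDK1 and PDK4 were each called in 4 of the 8. For SLC2A1, SLC2A3 and PDK1 the call also ended with an offset of 16 in place of 1 (limma adjusted p = 0.0548, 0.0786 and 0.0538). It also ended for these 3 genes when genes below background on all 4 arrays were left out (0.0678, 0.064 and 0.0634), as did that of PDK4 (0.0678). PFKFB3 was called in 3 of the 8 and HK1 in 2, and PFKFB2 and LDHA in none, where the lowest limma adjusted p was 0.973 and 0.388. Among these, 1 fit set every dim signal to background, which gave 7676 genes the same 4 values and adjusted p as low as 9.87e-37 for SLC2A1, so its calls carry no weight of their own. Without it HK2 was called in 5 of 7, PDK4 in 4, SLC2A1, SLC2A3 and PDK1 in 3, PFKFB3 in 2 and HK1 in 1. The direction of the mean change stayed the same for every called gene in all 8. Fits without the trend, without the block or with genes below background left out keep these estimates unchanged. So does averaging probe sets, since each of the 9 genes had 1. In those fits the direction could not differ.

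**Figure D3:**
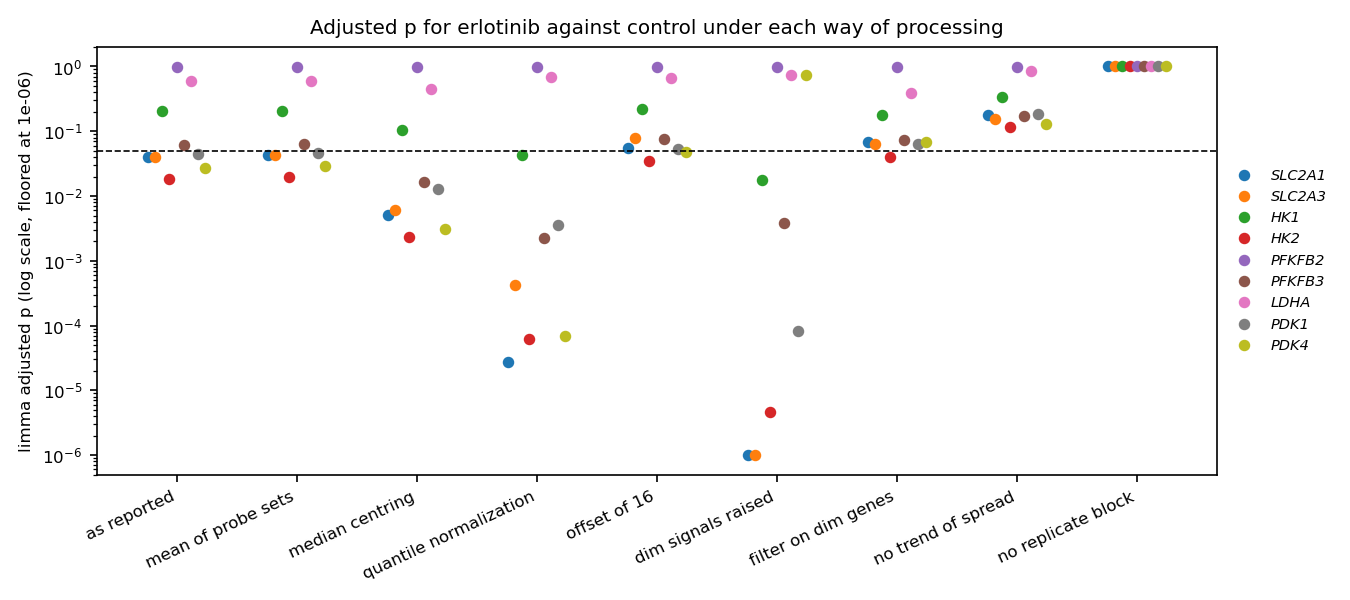
Limma adjusted p of each gene for erlotinib against control (log axis, with values under 1e-06 drawn at 1e-06) under the processing reported and 8 alternatives; the dashed line marks 0.05. Most genes that moved sit close to the line as reported, below it after median centring or quantile normalization, and above it with no trend of the spread or with no block.

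Other genes of glucose metabolism were taken from 6 lists. Over all 17687 genes 14.4% had an unadjusted limma p under 0.05, 29.6% were lower in both EGFR-mutant lines and 30% were higher in both, and the counts below are to be read against these shares. Among 14 measured glucose and lactate transporter genes 1 rose and 1 fell. SLC2A12, which encodes GLUT12, gave, control first, 8.86 and 10.34 in PC-9, 7.88 and 10.13 in HCC827, and 11.98 and 11.41 in H322. It rose by 1.86 ± 0.25, or 3.64-fold (limma adjusted p = 0.0225), against the direction of SLC2A1, and all 6 signals were above background. SLC2A14, given above, fell. The median of the list was -0.06, and BSG, a chaperone of lactate transporters, had 0.11 without passing.

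Of the 25 measured enzymes of glycolysis and gluconeogenesis outside the 9 genes, 0 passed in limma. The 4 at an unadjusted p under 0.05 were near the 14.4% of all genes, and the median was -0.13. TIGAR, which lowers fructose 2,6-bisphosphate, had -1.04 ± 0.23, PFKP, a phosphofructokinase, had -0.52 ± 0.14 and PGAM1, a phosphoglycerate mutase, had -0.42 ± 0.12 (limma adjusted p = 0.0769, 0.131 and 0.17). Lower in both lines were 13 of the 25 (29.6% of all genes), and 18 had a higher signal with EGF (51.1%). Both counts go by sign alone and include genes below background, since 7 of the 25 lay above it on none of the 6 arrays. The 14 measured genes of pyruvate entry had a median of 0.15 with 0 past the threshold in limma and 2 at an unadjusted p under 0.05, about the share over all genes. PDPR, a regulatory subunit of pyruvate dehydrogenase phosphatase, had 1.23 ± 0.24, and PDK2, another kinase of the PDK family, had 0.49 in PC-9 and 1.51 in HCC827 (limma adjusted p = 0.0594 and 0.111). MPC2, a subunit of the mitochondrial pyruvate carrier, had 0.43. Higher in both lines were 7 of the 14 (30% of all genes) and lower in both was 1 (29.6%).

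Of 7 measured pentose phosphate enzymes 0 passed in limma or at an unadjusted p under 0.05, and PGD, PGLS and RPIA had 0.37, 0.33 and -0.58 (list median 0.31). Among 18 measured regulators of glucose metabolism 2 rose and 0 fell in limma, with 8 at an unadjusted p under 0.05 (14.4% of all genes). TXNIP, which curbs glucose uptake, went from 12.73 to 14.31 in PC-9 and from 12.54 to 14.19 in HCC827 and rose by 1.61 ± 0.13 (limma adjusted p = 0.00734), while both its H322 signals lay below background. FOXO4, a FOXO factor, rose by 1.51 ± 0.26 (limma adjusted p = 0.0448), with both control arrays below background. With dim signals set to background, its difference was 1.16 in PC-9 and 0.03 in HCC827. MYC, with -2.31 in PC-9 and -0.56 in HCC827, missed the threshold (limma adjusted p = 0.104).

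The 15 measured genes known to be induced by hypoxia had a median of -0.44, the lowest of the 6 lists, with 1 past the threshold and 7 at an unadjusted p under 0.05 (14.4% of all genes). VEGFA, the angiogenic growth factor, fell by 1.16 ± 0.14 (limma adjusted p = 0.0182). NDRG1 and DDIT4 had -1.02 and -1.32 and did not pass. Of the 15 genes 8 were lower in both lines (29.6% of all genes) and 4 were higher in both (30%).

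**Figure D4:**
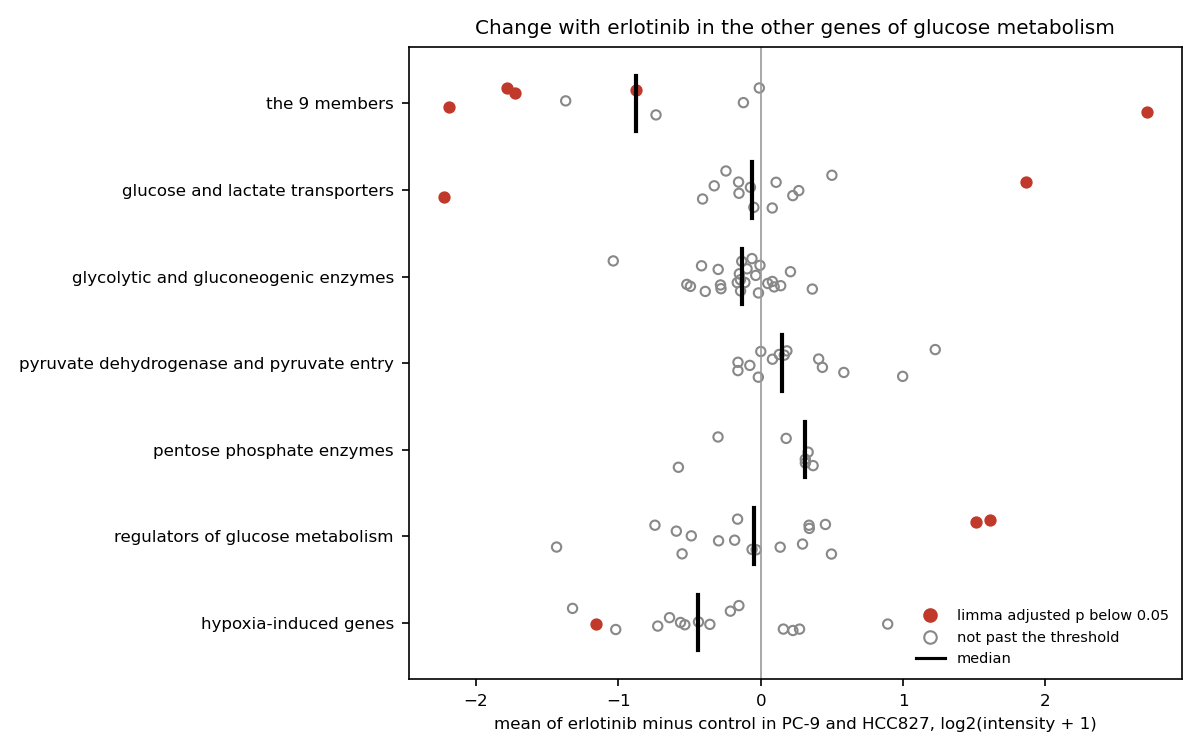
Mean of erlotinib minus control in PC-9 and HCC827, on the log2(intensity + 1) scale, for the 9 genes and for the genes of 6 lists of glucose metabolism and hypoxia; each circle is 1 gene, red where limma's adjusted p was below 0.05, and the vertical bars are medians. The enzymes of glycolysis cluster near their median of -0.13, with no red circle among the 25, while the 9 genes spread from -2.19 for HK2 to 2.71 for PDK4.

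The genes whose 3 differences (PC-9, HCC827 and H322) lay closest to those of SLC2A1, among 7404 genes above background on all 6 arrays, were CHST11, POFUT4, ZYX, ETS1 and SLC25A32. Their Euclidean distances on the log2 scale ran from 0.36 to 0.68. Closest to PDK1 were PHLDB2, GEMIN4, P2RY2, IVNS1ABP and SLC38A12, at 0.11 to 0.19.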

How the data were processed

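Trizol was used to extract total RNA, from which biotinylated cRNA was made for the Clarion S array, as stated in the labels' protocols. The authors deposited linear intensities, 1 per probe set and array. The submitters' processing notes name Affymetrix Expression Console as the tool, and no version, background correction, summarisation or scaling method is given in the sources used here. Array medians ran from 148 to 157. If the arrays were scaled, a change shared by most genes would be hidden by it.

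From the intensities log2(value + 1) was computed. Of 24351 probe sets 17709 had 1 symbol in the platform annotation, 0 had several and 6642 had none. A RefSeq gene table held all 17709 and changed 0 symbols. The brightest probe set stood for each symbol, and each of the 9 genes had 1. Array titles gave the groups. Erlotinib was tested with limma 3.58.1 in R 4.3.3 (lmFit, then eBayes with trend = TRUE, two-sided, threshold 0.05). Pairing is by the cell line in the labels: across genes the arrays of a pair correlated at 0.991 (PC-9) and 0.988 (HCC827), whereas both controls correlated at 0.907. EGF had no test. Changes past 2-fold were counted with dim signals set to background. The genes and lists were chosen with earlier results of these data known. Of each list the text names genes past the threshold, filled up to 3 with the largest mean changes among genes above background on at least 1 array of each EGFR-mutant line. The number of arrays limits the precision.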

Additional observations from a re-analysis of the deposited data

Results flagged for a closer look

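PFKFB2 changed in opposite directions with erlotinib in the lines, with 0.17 in PC-9 and -0.19 in HCC827 on the log2 scale. The change in HCC827 minus that in PC-9 was -0.37. This difference was not tested, since each line had 1 array per condition.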

How the results depend on the processing

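No called gene of the 9 changed direction under any alternative, though several alternatives leave the estimates unchanged and so could not show a change of direction. Among calls of single genes 18 were lost and 5 gained. The 262 genes past the threshold for erlotinib (162 lower, 100 higher) became 166 with an offset of 16 (58 higher), 96 with genes below background on all 4 arrays left out (69 and 27), 636 with arrays centred on their medians (366 and 270) and 954 (505 and 449) once arrays were quantile normalized. Setting dim signals to background gave 1115 (582 and 533), where 7676 genes sat at the floor on all 4 arrays and so shared the same 4 values. With no trend of the spread limma called 1 gene, lower, and 0 higher (2255 at an unadjusted p under 0.05). With no replicate block limma called 0 genes, 0 lower and 0 higher (186 at an unadjusted p under 0.05). Of the 9 genes 4 fell and 1 rose as reported. With the offset of 16, 1 fell. With the filter on dim genes 1 fell and 0 rose in limma, and 0 rose with dim signals set to background. With no trend 0 fell and 0 rose (7 at an unadjusted p under 0.05), and with no replicate block 0 fell and 0 rose (1 at an unadjusted p under 0.05). With no bound on dim signals 133 genes were past 2-fold with EGF (70 higher, 63 lower) against 20 (11 and 9), and 613 in PC-9 and 1038 in HCC827 with erlotinib against 396 and 688. Other alternatives for these counts lay within 1.5 times. Leaving out 1 line leaves no residual degree of freedom, so no count of calls could be had, and the single lines stand in the report. The cause of these differences between fits was not tested. Signals near the negative controls limit what can be said of HK2 and PFKFB3 in PC-9, SLC2A3 in HCC827 and PDK4 throughout.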
